A study of Oryza sativa with 9 samples.

Results

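The genes described here control strigolactone synthesis, strigolactone signalling and the formation and outgrowth of tillers, the side shoots of rice. They were chosen by locus identifier, as the table rows of D3 (LOC_Os06g06050), D10 (LOC_Os01g54270), D14 (LOC_Os03g10620), D17, also called HTD1 (LOC_Os04g46470), D27 (LOC_Os11g37650), D53 (LOC_Os11g01330), TB1, also called FC1 (LOC_Os03g49880), MOC1 (LOC_Os06g40780) and IPA1 (LOC_Os08g39890). Rows of 8 of the 9 genes were used, out of 55986 genes in all, and D27 was not analysed here. The symbols were paired with the identifiers when the genes were chosen, and the table of expression values itself gives identifiers alone.

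RNA sequencing was done on leaves of 40-day-old rice plants from paddy fields. Mutant line 1 and mutant line 2 are the libraries titled osatxr5c;osatxr6kd-1 and osatxr5c;osatxr6kd-2, both with the genotype osatxr5c;osatxr6kd, and the WT libraries are titled NP. Each group held 3 libraries. The ATXR5 and ATXR6 proteins of plants methylate histone H3, and the genotype name refers to both rice genes. The labels explain neither the suffixes c and kd nor how the lines differ, and they do not say whether the libraries of a group came from separate plants, so p-values measure the spread between these libraries, which may be technical. The targeted genes were not analysed here.

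Strigolactones are carotenoid-derived hormones that hold back tiller outgrowth. D27, D17 and D10 act in turn in plastids on the carotenoid precursor. In signalling, the hydrolase D14 perceives the hormone and joins the F-box protein D3, and together they mark the repressor D53 for degradation. IPA1, TB1 and MOC1 are transcriptional regulators of the bud: IPA1 (OsSPL14) acts with D53 and promotes TB1 expression, TB1 restrains bud outgrowth, and MOC1 is needed for a bud to form.

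The values are the authors' TPM, a relative transcript abundance that is scaled by gene length and can be compared between genes, and the sequencing depth behind them is unknown. Each library listed between 21798 and 22621 genes above 0, and its lowest non-zero value lay between 0.303 and 0.327 TPM. A listed 0 may stand for a level below that value and does not show that a transcript was absent. As a check of the tissue, the summed level of 4 loci listed as leaf mesophyll markers, from general knowledge of locus numbers, lay between 26503 and 30106 TPM in the 9 libraries. The 4 loci listed for the shoot meristem and the 1 listed for the root were at 0 in all 9 libraries. The 2 loci listed for dividing cells summed to between 10.2 and 14.1 TPM.

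The members differed widely in level. D14, the receptor, averaged 367 TPM over the 9 libraries and stood above 98.3% of the 19345 genes tested. D53 followed at 16.5 TPM, D3 at 12.2 TPM and D10 at 5.48 TPM. IPA1 averaged 1.76 TPM, MOC1 0.836 TPM and D17 0.680 TPM. TB1 was listed at 0 in every library.

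The order of these levels held in each library for most neighbours. D14 exceeded D53 in 9 of 9 libraries, and D3 exceeded D10, D10 exceeded IPA1 and IPA1 exceeded MOC1 in 9 of 9. D53 exceeded D3 in 8 of 9 libraries, and the levels of these genes overlapped in mutant line 2. MOC1 exceeded D17 in 7 of 9 libraries, and they overlapped in mutant line 1.

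**Figure D1:**
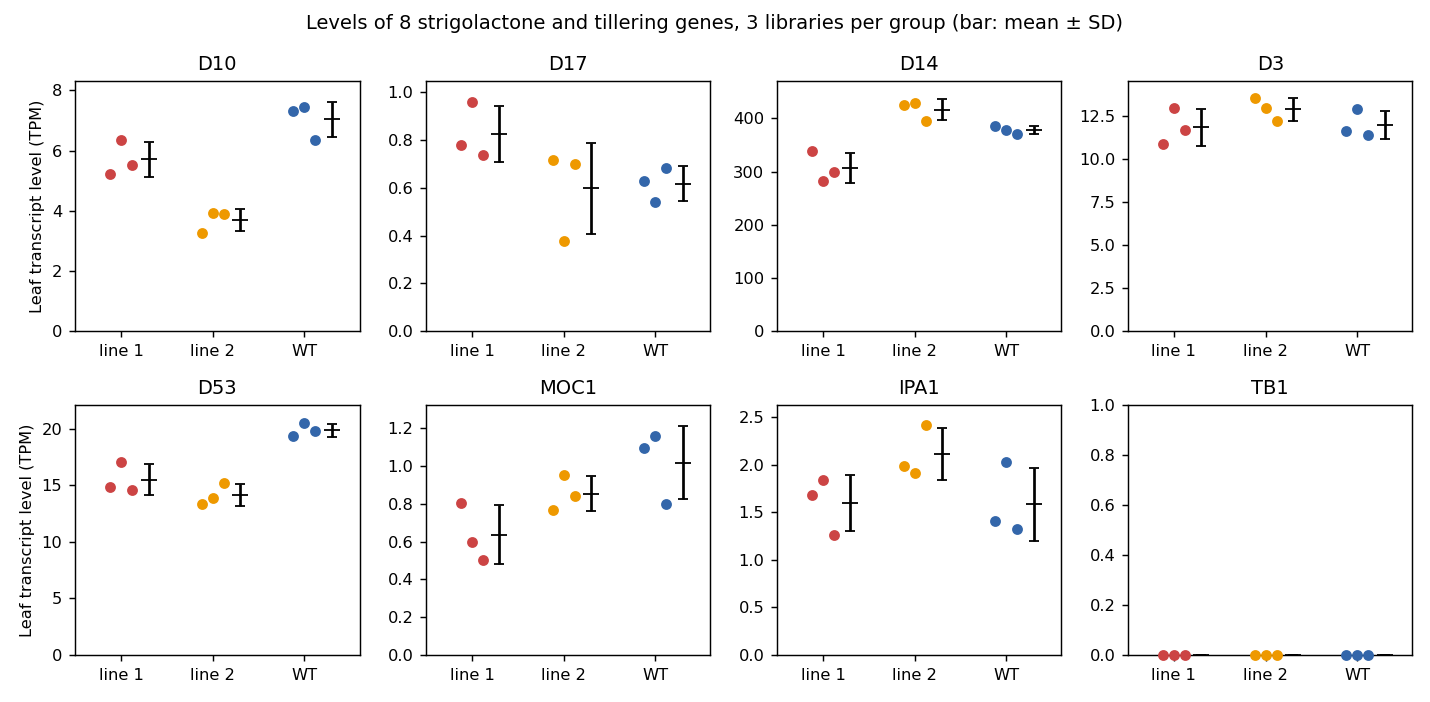
Level in TPM (vertical axes, each from 0 with its own scale) of 8 genes in mutant line 1, mutant line 2 and WT. Points are libraries, and the bars beside them are the mean ± SD of 3 libraries. D53 is lower in all 6 mutant libraries than in the WT libraries, as are 9.98% of tested genes. D10 is too, but its highest line 1 library nearly reaches the lowest WT library, and line 1 against WT did not pass. D14 is lowest in line 1 and highest in line 2, and TB1 is at 0.

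D53, the repressor of the pathway, was lower in both mutant lines than in WT, at 0.779 of the WT mean in line 1 and 0.712 in line 2. D10, a synthesis enzyme, was lowest in line 2. D14, the receptor, was lower in line 1 than in WT and highest in line 2. Changes were tested with limma on log2(TPM + 1), with p-values adjusted by the Benjamini-Hochberg method over the 19345 genes that averaged at least 1 TPM, and a call means an adjusted p under 0.05. D10, D14, D3, D53 and IPA1 were tested, whereas MOC1, D17 and TB1 were below the minimum. In mutant line 1 against WT, 2 of the 5 tested members fell, D14 and D53, and none rose. In that comparison 25.6% of all tested genes passed, 15.7% as falls. Over all tested genes the direction depended on the scaling: as deposited 1922 were higher and 3031 lower in that comparison, but 2532 higher and 1969 lower with median-ratio scaling. Quantile normalization kept more falls than rises, at 2070 higher and 2832 lower. In mutant line 2 against WT, 2 of the 5 fell, D10 and D53, and none rose, against 21.9% of all tested genes, with 13.5% as rises and 8.39% as falls. Those were 2613 higher and 1623 lower genes. Median-ratio scaling gave 2577 higher and 1746 lower, while quantile normalization gave 2287 and 2266. When the lines were averaged against WT, D10 and D53 were the 2 members that fell, and 25.7% of all tested genes passed, 13% as falls. The genes were 2458 higher and 2510 lower, or 2746 and 1982 with median-ratio scaling and 2318 and 2879 with quantile normalization. With 5 members the counts are too small to set apart from these shares.

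Of the synthesis genes, D10 encodes the carotenoid cleavage dioxygenase that makes carlactone, the precursor of strigolactones. It was at 5.23, 6.35 and 5.52 TPM in mutant line 1, at 3.27, 3.93 and 3.90 TPM in mutant line 2 and at 7.30, 7.44 and 6.36 TPM in WT. The 3 groups did not overlap, although the highest line 1 library nearly reached the lowest WT library, and line 2 was lowest. Groups that do not overlap are common in this table, at 38% of tested genes between line 1 and WT, 37.8% between line 2 and WT and 38.9% between line 2 and line 1. In mutant line 2 the mean was 0.526 of the WT mean. On the log2(TPM + 1) scale D10 fell by 0.77 ± 0.11 (SE) in line 2 against WT (limma adjusted p = 0.000141). A larger change in size was found in 4.83% of all tested genes in that comparison.

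The difference of D10 between mutant line 1 and WT did not pass. The change was -0.26 ± 0.11 (SE) in log2 units, its 95% interval running from -0.50 to -0.02 (limma adjusted p = 0.105). The lines differed from each other: D10 was lower in line 2 than in line 1 by a change of -0.51 ± 0.11 (SE) (limma adjusted p = 0.00448). Averaged, the lines against WT gave -0.52 ± 0.10 (SE) (limma adjusted p = 0.0012), and that standard error leaves out the difference between the lines.

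D17 encodes the cleavage dioxygenase that acts before D10. It was at 0.778, 0.958 and 0.737 TPM in mutant line 1, at 0.718, 0.377 and 0.699 TPM in mutant line 2 and at 0.627, 0.542 and 0.685 TPM in WT. The line 1 libraries lay above those of mutant line 2 and WT, which overlapped each other. Among the tested genes, which leave out D17, 38% did not overlap between line 1 and WT and 38.9% between the lines. Without a minimum level, limma gave changes of 0.17 ± 0.14 (SE) in line 1 and -0.02 ± 0.14 (SE) in line 2 against WT, with adjusted p-values of 0.459 and 0.958, among 24824 genes of which 20.6% and 17.8% passed. With a pseudocount of 0.1 the difference was 0.36 in line 1 and -0.08 in line 2. One line 2 library, at 0.377 TPM, was 1.24 times the lowest non-zero value of the table, so a difference in D17 could not be sized at these levels.

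Of the signalling genes, D14 differed between the 2 lines. It was at 338, 283 and 299 TPM in mutant line 1, at 425, 430 and 395 TPM in mutant line 2 and at 385, 377 and 371 TPM in WT. No groups overlapped: all line 1 libraries were lower and all line 2 libraries higher than the WT libraries. Such separation was common, at 38% of tested genes between line 1 and WT, 37.8% between line 2 and WT and 38.9% between the lines.

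D14 fell in mutant line 1 against WT, by 0.30 ± 0.06 (SE) in log2 units (limma adjusted p = 0.0025), and its mean was 0.811 of the WT mean. In mutant line 2 against WT the change was 0.14 ± 0.06 (SE), with a 95% interval from 0.0045 to 0.27 (limma adjusted p = 0.14), which did not pass. After quantile normalization this change was 0.20 (limma adjusted p = 0.0279), which passed. The direct test of the lines showed D14 higher in line 2 than in line 1 by 0.44 ± 0.06 (SE) (limma adjusted p = 0.000132). In that comparison 2 of the 5 members passed, D14 as a rise and D10 as a fall, against 22% of all tested genes, 15.2% as rises and 6.8% as falls. This excess of rises, 2941 against 1315 genes, was 1925 against 1920 with median-ratio scaling and 2179 against 1691 with quantile normalization.

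The summed level of the 4 loci listed as leaf mesophyll markers, all above 0, was also highest in mutant line 2. It was 26503 to 27106 TPM in mutant line 1, 29302 to 30106 TPM in mutant line 2 and 26634 to 28448 TPM in WT. The sums of line 1 and WT overlapped. Taken singly, the loci did not move together in line 2 against WT. Their changes were 0.19 and 0.20, both called, and -0.03 and -0.05, neither called. Of these loci, 2 were higher and none lower in line 2 against line 1, against 15.2% and 6.8% of all tested genes. Their median change was 0.16. After median-ratio scaling or quantile normalization 0 of 4 passed in that comparison, and the median change stayed above 0, at 0.085 and 0.076. The part of these cells in the D14 difference was not tested. In whole leaves, fewer cells of a type and less RNA per cell cannot be told apart.

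D3, the F-box subunit, showed no detectable difference. It was at 10.9, 13.0 and 11.7 TPM in mutant line 1, at 13.6, 13.0 and 12.2 TPM in mutant line 2 and at 11.6, 12.9 and 11.4 TPM in WT. All groups overlapped. The change on the log2(TPM + 1) scale was -0.02 in line 1 against WT, with a 95% interval from -0.21 to 0.18, and 0.10 in line 2 against WT, with a 95% interval from -0.10 to 0.29. The limma adjusted p-values were 0.915 and 0.505.

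D53, the repressor that is degraded when the hormone is perceived, fell in both lines. It was at 14.8, 17.1 and 14.6 TPM in mutant line 1, at 13.4, 13.9 and 15.2 TPM in mutant line 2 and at 19.4, 20.5 and 19.8 TPM in WT. All 6 mutant libraries were lower than all 3 WT libraries, as in 9.98% of tested genes, and the mutant lines overlapped each other. D53 was the one member called in the same direction in each line against WT, which held as a fall for 4.67% of tested genes.

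On the log2(TPM + 1) scale D53 fell by 0.34 ± 0.08 (SE) in mutant line 1 and by 0.46 ± 0.08 (SE) in mutant line 2 against WT, with limma adjusted p-values of 0.00777 and 0.000914. Both comparisons use the same WT libraries. The lines did not differ detectably from each other, with a change of -0.12, a 95% interval from -0.30 to 0.06 (limma adjusted p = 0.346) for line 2 against line 1. D53 has a closely similar copy in the rice genome. How reads shared between copies were counted is not given in the sources used here, so the level of D53 is uncertain to that extent. The locus listed as this copy, from general knowledge of locus numbers, was also called as a fall in both lines. Its change was -0.34 ± 0.09 (SE) in line 1 and -0.29 ± 0.09 (SE) in line 2 against WT. The limma adjusted p-values were 0.0111 and 0.0294, and 6 of 34 alternative fits did not pass. The part of shared reads in the D53 change was not tested. These are transcript levels, and the D53 protein was not measured.

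**Figure D2:**
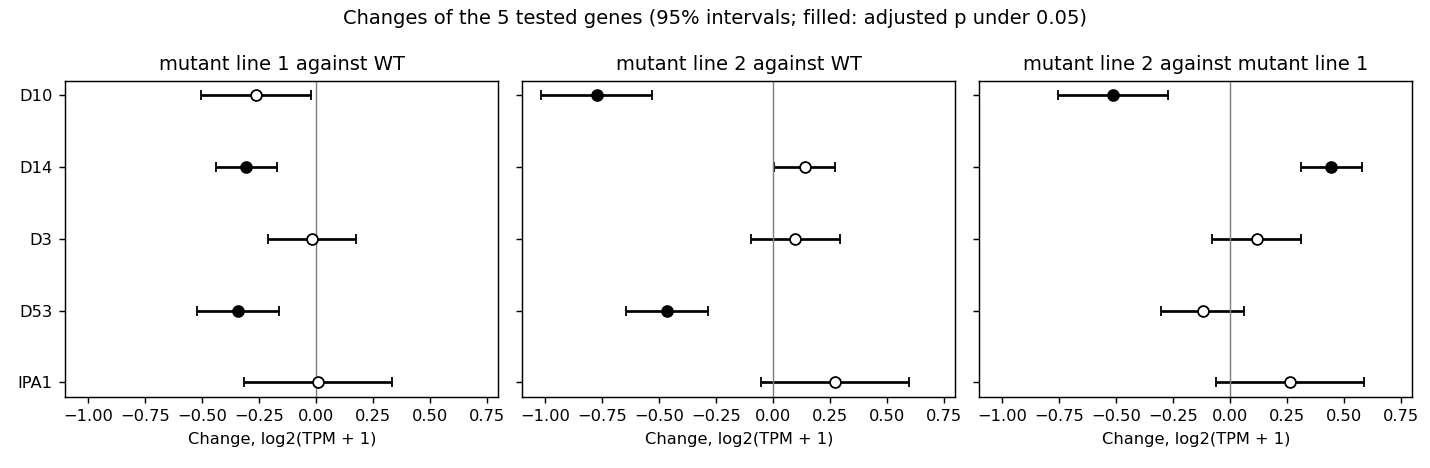
Change on the log2(TPM + 1) scale (horizontal axes) of the 5 tested genes for each mutant line against WT (left and middle) and for line 2 against line 1 (right). Points are limma estimates with 95% intervals, filled where the adjusted p was under 0.05, and D14 lies at -0.30, 0.14 and 0.44 across the panels.

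Of the bud regulators, IPA1 was at 1.69, 1.84 and 1.27 TPM in mutant line 1, at 1.99, 1.92 and 2.42 TPM in mutant line 2 and at 1.41, 2.03 and 1.32 TPM in WT. Each line overlapped WT, and mutant line 2 was above mutant line 1, while 38.9% of tested genes did not overlap between the lines. The change was 0.01 ± 0.15 (SE) in line 1 and 0.27 ± 0.15 (SE) in line 2 against WT in log2 units, with limma adjusted p-values of 0.975 and 0.238. Line 2 against line 1 gave 0.26 with a 95% interval from -0.06 to 0.59, which includes both no change and a rise larger than that of D14.

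MOC1, the GRAS-family regulator of bud formation, was at 0.807, 0.601 and 0.500 TPM in mutant line 1, at 0.768, 0.951 and 0.840 TPM in mutant line 2 and at 1.10, 1.16 and 0.798 TPM in WT. Both lines overlapped WT, the overlap in line 1 resting on 1 library of each group. Without a minimum level, limma gave -0.30 ± 0.14 (SE) in line 1 and -0.12 ± 0.14 (SE) in line 2 against WT, with adjusted p-values of 0.154 and 0.632. With a pseudocount of 0.1 the difference was -0.61 in line 1 and -0.22 in line 2. TB1, the TCP-family repressor of bud outgrowth, was listed at 0 in all 6 mutant libraries and all 3 WT libraries, so no change can be given for it.

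Ratios between members within a library do not depend on how the libraries were scaled against each other. The ratio of D14 to D53 was 22.8, 16.5 and 20.5 in mutant line 1, 31.8, 31.0 and 26.0 in mutant line 2 and 19.9, 18.4 and 18.8 in WT. Line 2 was above both other groups, and line 1 overlapped WT, with D14 and D53 both lower in line 1. The ratio of D14 to D3, the partners in hormone perception, averaged 26.2 ± 4.70 in line 1, 32.3 ± 0.897 in line 2 and 31.6 ± 2.12 in WT (SD, n = 3 each), and each line overlapped WT.

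The ratio of D53 to D3 averaged 1.31 ± 0.0579 in mutant line 1, 1.10 ± 0.131 in mutant line 2 and 1.66 ± 0.0746 in WT (SD, n = 3 each). All mutant libraries were below all WT libraries, as D53 itself was, a separation found for 9.98% of single tested genes. The ratio of D10 to D3 was 0.481, 0.489 and 0.473 in line 1, 0.241, 0.304 and 0.319 in line 2 and 0.627, 0.575 and 0.558 in WT. The 3 groups were separate, with line 1 between line 2 and WT, as for D10 itself. Single tested genes were separate in 38% between line 1 and WT, 37.8% between line 2 and WT and 38.9% between the lines. D3 showed no detectable difference, so its ratios follow the levels of D53 and D10 and are not separate support. The share among ratios of other genes was not computed, and no test was made of these ratios.

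**Figure D3:**
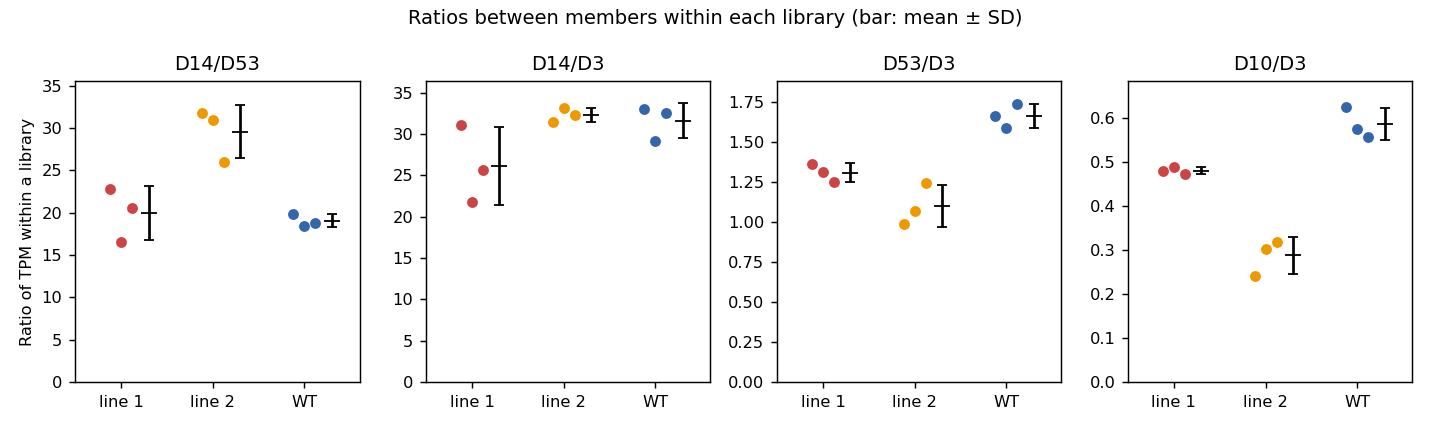
Ratio of the TPM of one member to that of another in the same library (vertical axes, from 0) in mutant line 1, mutant line 2 and WT. Points are libraries and bars are the mean ± SD of 3 libraries. D14/D53 stands out upward in line 2, and D53/D3 and D10/D3 are lower in both lines than in WT.

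Precision differed with level. The coefficient of variation within a group was 1.83% to 9.29% for D14, 2.93% to 8.94% for D53 and 8.34% to 10.2% for D10. It was 13.0% to 24.2% for IPA1, 10.8% to 24.6% for MOC1 and 11.6% to 32.0% for D17. The low genes varied more between libraries of a group than the high ones.

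Likeness of pattern was measured as Pearson's r of log2(TPM + 1) over the 9 libraries, as a description. The gene most like D53 among the tested genes was LOC_Os12g29220, with r = 0.994, and 0.967 for deviations from the group means. Its means were 46.5 TPM in mutant line 1, 43.6 TPM in mutant line 2 and 58.7 TPM in WT. The gene most like D10 was LOC_Os06g39960, with r = 0.988, and 0.855 for deviations from the group means. It averaged 18.8 TPM in mutant line 1, 13.1 TPM in mutant line 2 and 22.9 TPM in WT. An r above 0.95 was reached by 27 genes for D53, 34 for D10, 41 for D14, 2 for IPA1 and 0 for D3. Each closest gene was picked as the highest r among 19344 genes in these same libraries, which raises both of its values. For D3, which showed no detectable difference, the closest gene had r = 0.938, and 0.929 for deviations from the group means.

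The other genes of the pathway were described through 5 lists of loci, 51 in all, of which 36 were tested. No source used here pairs these identifiers with symbols, so the lists rest on general knowledge of locus numbers and are given by counts. None of the 36 loci rose in both lines against WT, and 4 fell in both, against 6.26% and 4.67% of all tested genes. Of the 4 falls, 2 passed in all 34 fits of the alternatives, 17 per line, and the others failed in 6 and 7 of them, with a highest limma adjusted p of 0.112 and 0.114.

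The list of other synthesis genes held 6 loci, of which 2 were tested and 3 were at 0 in all libraries. One fell in each line against WT, LOC_Os02g12890. Over all tested genes 15.7% fell in line 1, 8.39% in line 2 and 4.67% in each of them. LOC_Os02g12890 was at 11.2, 11.2 and 9.95 TPM in mutant line 1, at 9.10, 8.71 and 10.8 TPM in mutant line 2 and at 16.8, 16.2 and 15.3 TPM in WT. All mutant libraries were below all WT libraries, as in 9.98% of tested genes. Its change was -0.53 ± 0.10 (SE) in line 1 and -0.70 ± 0.10 (SE) in line 2, with limma adjusted p-values of 0.000825 and 7.5e-05.

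The list of other strigolactone and karrikin signalling genes held 8 loci, all tested. In mutant line 1 against WT 3 fell and none rose, with a median change of -0.18 against -0.06 over all tested genes, of which 15.7% fell. Median-ratio scaling left 2 falls and quantile normalization gave 4. In mutant line 2 against WT 3 fell and 1 rose, with a median of -0.12 against 0.0025 and with 8.39% falls and 13.5% rises over all tested genes. The rise was lost with quantile normalization. The largest fall of this list in both was LOC_Os02g49840, at 31.5, 35.8 and 31.4 TPM in mutant line 1, at 32.5, 33.6 and 36.7 TPM in mutant line 2 and at 52.3, 54.5 and 56.8 TPM in WT. Its levels in the 2 lines overlapped and were below all WT libraries, a separation found in 9.98% of tested genes. Its change was -0.71 ± 0.07 (SE) in line 1 and -0.66 ± 0.07 (SE) in line 2, with limma adjusted p-values of 4e-06 and 1e-05.

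The SPL family, to which IPA1 belongs, was represented by 18 further loci. Of these 13 were tested and 4 were at 0 in all libraries. In mutant line 1 against WT 5 fell and none rose, with a median change of -0.22 against -0.06 over all tested genes, of which 15.7% fell, and after median-ratio scaling 3 fell and 2 rose, while quantile normalization gave 5 falls and no rise. In mutant line 2 against WT 1 rose and none fell, against 13.5% and 8.39% of all tested genes. In line 2 against line 1, 5 were higher and none lower, against 15.2% and 6.8% of all tested genes. Median-ratio scaling left 2 higher and 2 lower and quantile normalization 1 and 1, so the one-sided direction depended on the scaling. Both of these comparisons use the line 1 libraries.

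The list of other bud and tillering genes held 11 loci, of which 5 were tested and 5 were at 0 in all libraries. One fell in mutant line 1 against WT, and 1 rose in mutant line 2 against WT. The fall did not pass after median-ratio scaling, while quantile normalization gave 1 fall in line 1. The carotenoid list, enzymes that supply the precursor, held 8 loci, all tested. One fell in each line against WT, and none rose in either. In line 1, 2 rose and none fell after median-ratio scaling, while quantile normalization gave 1 fall and no rise. These counts of 1 in 5 and 1 in 8 stand against falls of 15.7% in line 1 and 8.39% in line 2, and rises of 13.5% in line 2, over all tested genes. In the carotenoid list the changes lay between -0.19 and 0.20 in line 1 and between -0.66 and 0.12 in line 2.

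**Figure D4:**
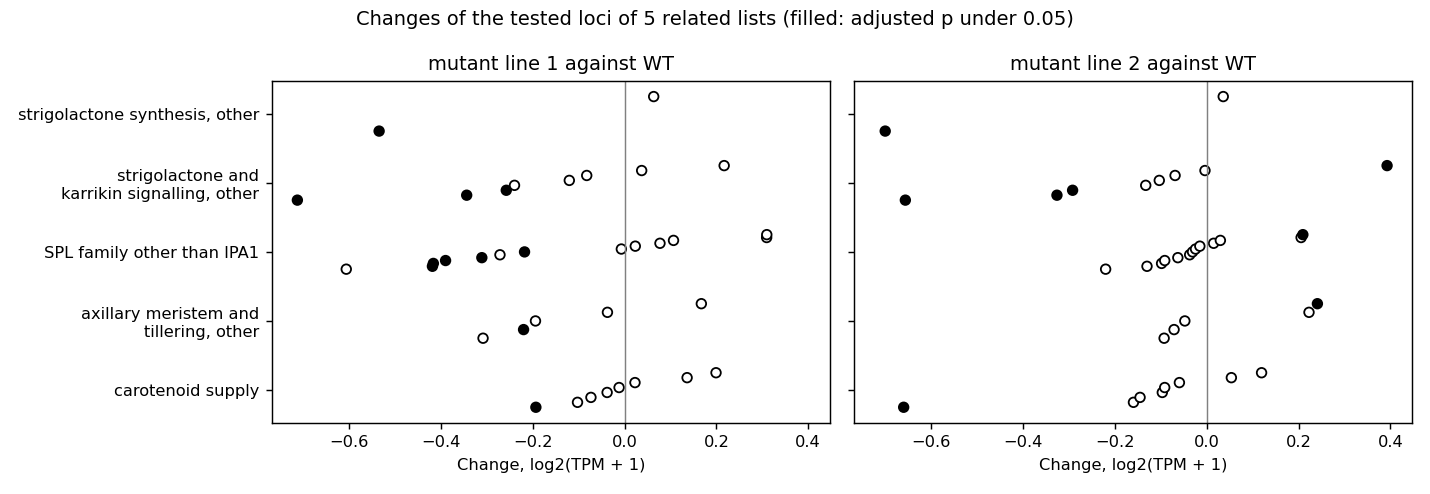
Change on the log2(TPM + 1) scale (horizontal axes) of the 36 tested loci of 5 lists in mutant line 1 and in mutant line 2 against WT. Each point is a locus, filled where the limma adjusted p was under 0.05, and vertical spacing within a list only separates the points. The lowest changes are -0.71 in line 1 and -0.70 in line 2.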

How the data were processed

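Leaf RNA of 9 libraries was sequenced. Extraction and library preparation used commercial kits, per the labels' protocols. The authors deposited 1 table of TPM values, 1 column per library, each summing to 1000000. The submitters' processing notes name fastp 0.20.1, HISAT2 2.1.10 and DESeq2 1.26.0 without their roles. The counting program, genome build, annotation and strandedness are not given in the sources used here. TPM keeps no depth, so counting error cannot be given, and precision rests on the spread between 3 libraries.

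Libraries were grouped by title. Genes averaging at least 1 TPM (19345) were transformed to log2(TPM + 1) and fitted with limma 3.58.1 (R 4.3.3), with all 9 libraries in 1 model, a mean per group and a variance trend. This scale understates changes of low genes. Tests were two-sided, with Benjamini-Hochberg adjustment over all genes tested. On simulated libraries of 19345 genes, the mean of both lines against WT recovered 69 of 100 changes of 0.5 and 98 of 100 changes of 1 (log2), with 17 false calls. Far fewer genes were changed there than passed in the data (25.7%), and the noise was normally distributed. The comparisons of single lines were not simulated, so this recovery may not hold for them. Summaries used pandas 2.3.3.

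The members and lists were chosen with earlier results of these data known. All 8 members are named. List loci were to be named where called in both lines in the same direction. Some were also to be named in every case, among them the near copy of D53 and LOC_Os02g49840. Because no source pairs identifiers with symbols, naming was limited to the largest 2 in each direction. The other loci enter the counts alone. The identifiers of the 2 genes most alike in pattern are also given. The values of the locus listed as the near copy of D53 are given too. Alternatives were a pseudocount of 0.1, no minimum and a minimum mean of 5 TPM, quantile normalization, median-ratio scaling, leaving out each library, a block for the replicate number, a prior variance without a trend and separate fits of the groups compared. Sequences and coordinates were not used here.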

Additional observations from a re-analysis of the deposited data

Results flagged for a closer look

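Both mutant lines carry the same genotype label, so mutant line 2 against mutant line 1 is the direct test of whether the comparison with WT differed between the lines. D14 was higher in line 2 by 0.44 ± 0.06 (SE) in log2(TPM + 1) (limma adjusted p = 0.000132), and in 3 of 3 line 2 libraries it was above all line 1 libraries. D10 differed by -0.51 ± 0.11 (SE) (limma adjusted p = 0.00448), and in 3 of 3 line 2 libraries it was below all line 1 libraries. In that comparison 22% of all tested genes passed and 38.9% had groups that did not overlap, so a difference between the lines was common in the table.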

How the results depend on the processing

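The calls of D10, D14 and D53 kept their direction and passed under all 17 alternatives in each comparison where they had passed. The highest adjusted p in limma's test was 0.0411, for D53 in mutant line 1 without line 1 replicate 3. Of 336 recomputed changes of the 5 tested members, 326 kept their direction and side of the threshold, 1 newly passed and 9 changed sign. The one that newly passed was D14 in mutant line 2 against WT, at 0.20 after quantile normalization. The sign changes were all in mutant line 1 against WT, for changes near 0. D3, at -0.02, was at 0.029 after quantile normalization and 0.041 after median-ratio scaling, and from -0.081 to 0.038 with single libraries left out. IPA1, at 0.01, was at -0.029 after quantile normalization and from -0.064 to 0.13 with single libraries left out. IPA1 could not be fitted with a minimum mean of 5 TPM.

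Counts of genes called over the whole table lay between 3067 and 5197 under all alternatives, against 4236 to 4968 as reported. With the replicate number as a block, which rests only on the numbers in the titles, 5076 genes passed in mutant line 1 against WT, 4301 in mutant line 2 against WT, 5044 for both lines and 4381 in line 2 against line 1, and no call of a member changed. Deviations of same-numbered libraries from their group means had r between 0.0116 and 0.212 over 9 pairs, above 0.1 in 3 of them. Among the 3 libraries of another group, the best match carried the library's own number in 15 of 18 cases. Equal odds would give fewer such matches, but the cases are not independent and this was not tested. Each pair of groups is counted from both sides, and deviations within a group cancel out. The main fit does not use the replicate number. With a pseudocount of 0.1 the untested differences of line 2 against line 1 were -0.44 for D17 and 0.39 for MOC1, against -0.20 and 0.18 with a pseudocount of 1. The unknown depth limits D17, MOC1 and TB1 most. Whether low values were set to 0 by the authors is also unknown.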
